A study of Mus musculus with 9 samples.

Results

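The 5 genes studied here are known genes of the interferon and NF-kB responses, measured in MOVAS cells. Each was read through 1 row of the deposited count table: Dhx58 (row Dhx58os), Usp18 (Gm44148), Ifi35 (Gm11626), Cxcl10 (Art3) and Nfkb2 (Psd). These 5 of the 53379 rows were chosen by their symbols and by measured values, since each had been called lower in DON against control, so that difference is described below and not tested. MOVAS is an immortalised line of mouse aortic smooth muscle cells, labelled C57BL/6. There were 3 groups of 3 libraries each: cells labelled as given no treatment, cells given 50 mM DON for 24 h, and cells given 50 mM DON with 2 mM glutamate for 24 h. DON (6-diazo-5-oxo-L-norleucine) is a glutamine analogue that inactivates glutaminase and other glutamine-using enzymes. The agents and doses are those the labels give and could not be checked from the counts: the DON dose is far above those usual for cultured cells, and the catalogue number beside glutamate may be that of another supplement. All groups were grown in the same serum medium with penicillin, streptomycin and geneticin, all came from 1 cell line, and nothing in the labels says that replicates were separate cultures, so the p-values measure only how these libraries vary, and that variation may be technical. Libraries held 1132822 to 1342286 counts, the lowest being DON plus glutamate replicate 3.

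Interferons are cytokines that cells release on sensing viral nucleic acid. They act through the JAK kinases and STAT transcription factors and switch on a large set of interferon-stimulated genes. NF-kB is a family of transcription factors held inactive in resting cells and released by cytokines such as TNF or by microbial products. In the artery wall, smooth muscle cells exposed to these signals make chemokines and adhesion molecules that draw in leukocytes.

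Each row is read here as the gene that lies opposite it on the other strand. The strand setting of the counting is not stated, so that reading is an inference from where the counts lie. The 5 genes had few counts in rows of their own names. Over the 9 libraries the row of Dhx58 held 1 to 4 counts, that of Usp18 11 to 16, that of Ifi35 4 to 24, that of Cxcl10 0 to 1 and that of Nfkb2 31 to 57. The rows that face them held 443 to 758, 806 to 1152, 1417 to 1827, 62 to 111 and 1015 to 1567 counts. Art3, an ADP-ribosyltransferase family gene, and Psd, a guanine nucleotide exchange factor, are coding genes themselves, and under the table's own names these counts would be theirs. No other row of the table shares exon bases with any of the 5 genes on the opposite strand, so each gene had 1 such value. Levels are not compared between genes, since each covers a stretch of different length.

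**Figure D1:**
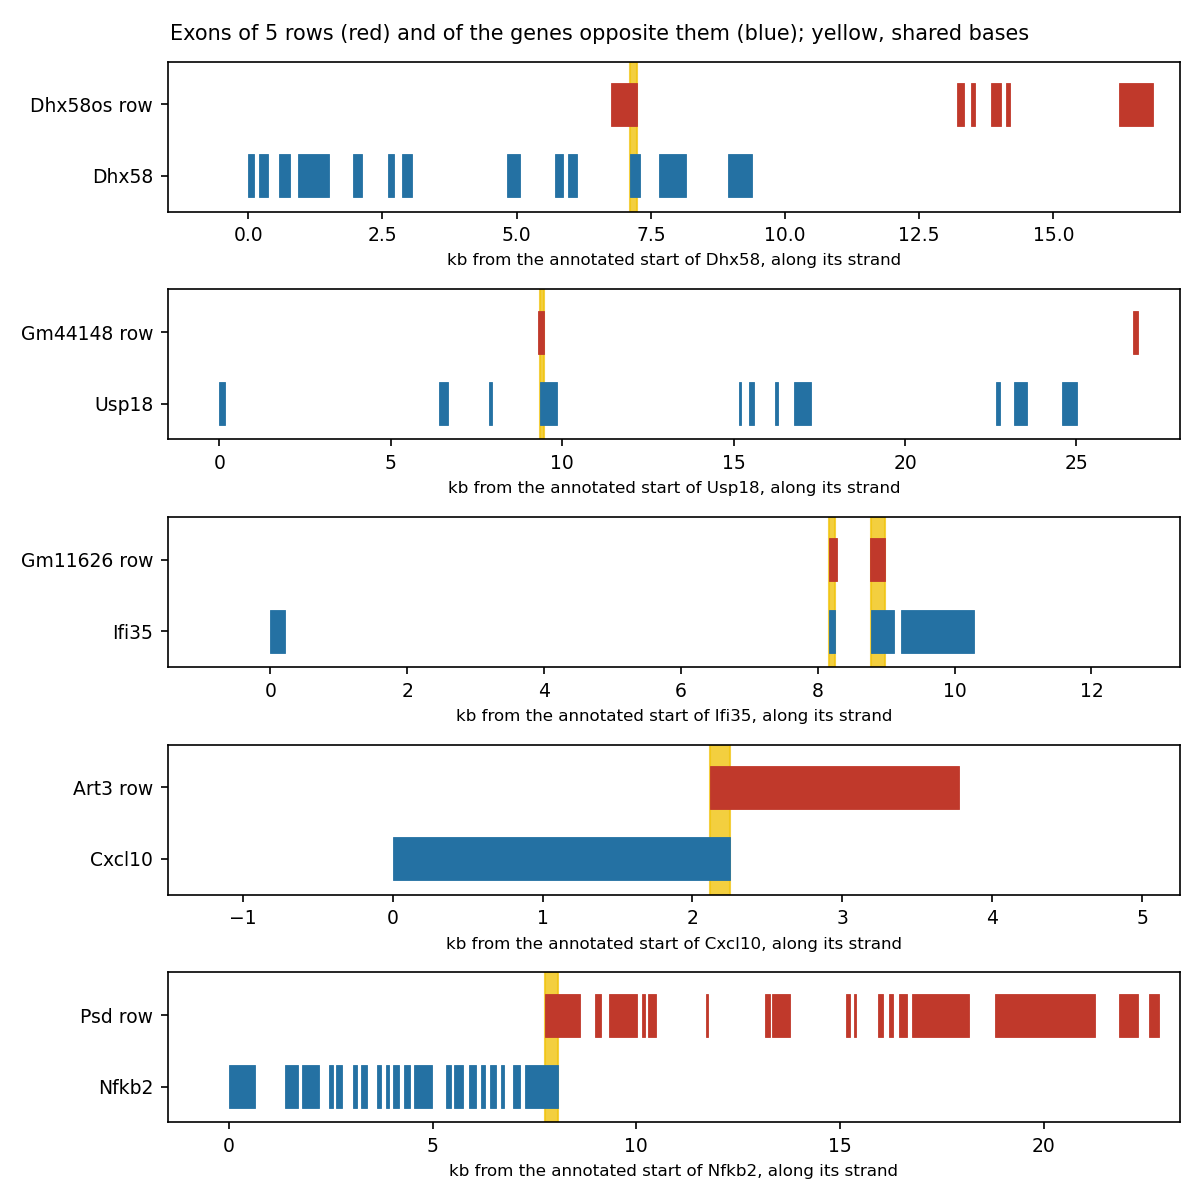
Exons of the 5 rows (red) and of the genes opposite them (blue), all annotated transcripts merged, against distance in kb from the annotated start of each gene along its strand. Yellow bands mark the shared bases, from 124 bp at Usp18 to 299 bp at Nfkb2, and exons of the Art3 row far from Cxcl10 lie outside the axis.

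How much of each gene the row covers differed, as the map of the 5 loci shows. Dhx58os (antisense RNA, chr11:100687417-100697520, plus strand) has 1594 exonic bases, of which 141 lie in exons of Dhx58, 354 in its introns and 1099 outside it, all of the last within the span of Zfp385c, a neighbouring gene on the strand of Dhx58. Gm44148 (long intergenic RNA, chr6:121255203-121272685, minus strand) has 316, with 124 in exons of Usp18, 61 in an intron and 131 outside the gene. Gm11626 (chr11:101456576-101457390, minus strand) has 333, of which 290 are in exons of Ifi35 and 43 in its introns. Art3 (chr5:92331827-92414628, plus strand) has 3932 exonic bases and shares 133 with Cxcl10, all in the 3' UTR of its last exon (exon 4 of 4). It shares no exon base with the neighbouring chemokine genes Cxcl9 and Cxcl11. Psd (chr19:46312087-46327156, minus strand) has 7636 and shares 299 with Nfkb2, where the 2 genes meet tail to tail. The shared part of Nfkb2 is 3' UTR and belongs to 2 of its 8 annotated transcripts, 1 with all 299 bases and 1 with 4 of them, whereas the first listed transcript ends 65 bases short of the row. The part of the Psd row's counts that comes from each transcript, or from RNA running past the end of Nfkb2, was not tested. Nor was the part of any of the 5 rows' counts that comes from the shared bases.

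For Dhx58 and Usp18 the shared bases are coding sequence, and for Ifi35 237 of 290 are, the other 53 lying in a retained-intron transcript and not printed. The coding stretches are shown because they are exonic bases of the gene that the row covers (mm10, strand of the gene, 5′ to 3′, GENCODE release M21 transcripts; no part is singled out, so all is in lower case). They lie in exon 11 of 13 of Dhx58 (chr11:100697026-100697166, minus strand), exon 4 of 11 of Usp18 (chr6:121255264-121255387, plus strand), and exons 2 and 3 of 7 of Ifi35 (chr11:101456576-101456664 and chr11:101457190-101457337, plus strand). Exon 3 of Ifi35 is printed whole. Each of the other stretches is only the part of the named exon that the row covers.
Dhx58 exon 11: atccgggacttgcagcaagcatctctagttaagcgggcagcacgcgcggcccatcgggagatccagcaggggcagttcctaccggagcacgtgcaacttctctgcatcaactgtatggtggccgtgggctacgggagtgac
Usp18 exon 4: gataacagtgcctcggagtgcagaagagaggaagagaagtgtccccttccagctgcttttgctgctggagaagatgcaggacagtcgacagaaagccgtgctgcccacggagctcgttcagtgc
Ifi35 exon 2: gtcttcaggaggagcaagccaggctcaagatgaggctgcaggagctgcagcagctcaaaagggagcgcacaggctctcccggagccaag
Ifi35 exon 3: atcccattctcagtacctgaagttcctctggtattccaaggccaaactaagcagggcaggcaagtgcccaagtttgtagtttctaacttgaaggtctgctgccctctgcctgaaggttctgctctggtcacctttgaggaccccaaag
Their GC content was 61.0% for Dhx58, 56.5% for Usp18, and 61.8% and 50.7% for the stretches of Ifi35. The stretch of Cxcl10 (chr5:92346638-92346770, minus strand) and that of Nfkb2 (chr19:46312087-46312385, plus strand) are untranslated and are given by position only.

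Dhx58 encodes LGP2, a relative of the viral RNA sensors RIG-I and MDA5 that tunes their signalling. It was read at 811.6, 755.3 and 754.2 CPM (counts scaled to 1e+06 over the tested opposite-strand genes, with TMM factors) in control replicates 1 to 3. The DON libraries had 543.5, 563.5 and 594.6 CPM, and those with DON plus glutamate 467.2, 589.5 and 617.9. The 3 control libraries lay above the other 6, and the libraries of the other groups overlapped. The DON mean was 73.3% of control (567.2 ± 25.8 against 773.7 ± 32.8 CPM, SD, n = 3), a 1.36-fold lower level (log2 -0.45 ± 0.09, SE). With glutamate the mean was 558.2 ± 80.0 CPM, 72.1% of control.

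Usp18 encodes a protease that removes the ubiquitin-like protein ISG15 from its targets and damps signalling at the interferon receptor. Control libraries had 1233, 1192 and 1181 CPM, DON libraries 1008, 939.8 and 943.9, and DON plus glutamate libraries 850.1, 970.1 and 1046. Again the control libraries were the 3 highest. The DON mean was 80.2% of control (963.8 ± 38.1 against 1202 ± 27.8 CPM, SD, n = 3; log2 -0.32 ± 0.08, SE), and the mean with glutamate 79.5% (955.5 ± 99.0 CPM).

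Ifi35 encodes a leucine zipper protein induced by interferon. Its control libraries lay close together at 1956, 1981 and 1989 CPM. DON libraries had 1637, 1743 and 1689 CPM, and those with glutamate 1628, 1826 and 1765. All 6 were under the lowest control, by a smaller margin than for Dhx58. The DON mean was 85.5% of control (1690 ± 53.3 against 1976 ± 17.3 CPM, SD, n = 3; log2 -0.23 ± 0.07, SE), and the mean with glutamate 88.1% (1740 ± 101.0 CPM).

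Cxcl10 encodes a chemokine that attracts T cells and is induced by interferon as well as by NF-kB. It rested on the fewest counts, and its libraries had 108.1, 120.6 and 113.7 CPM in control, 70.7, 81.1 and 92.6 in DON and 94.9, 65.7 and 79.7 in DON plus glutamate. No treated library reached the lowest control. The DON mean was 71.4% of control (81.5 ± 10.96 against 114.1 ± 6.3 CPM, SD, n = 3; log2 -0.49 ± 0.15, SE), and the mean with glutamate 70.2% (80.1 ± 14.6 CPM). The spread within each group, a coefficient of variation of 5.48% in control, 13.4% in DON and 18.2% in DON plus glutamate, compares with 9.74%, 11.4% and 11.8% from counting alone.

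Nfkb2 encodes p100, which is cut to p52, the subunit of the noncanonical NF-kB pathway, and which holds other NF-kB subunits in the cytoplasm until then. Control libraries had 1678, 1528 and 1451 CPM and DON libraries 1261, 1269 and 1325. DON plus glutamate libraries had 1530, 1397 and 1264. Here the DON libraries lay below every control, while 1 DON plus glutamate library lay within the control range and 1 within the DON range. The DON mean was 82.8% of control (1285 ± 34.9 against 1552 ± 115.5 CPM, SD, n = 3; log2 -0.27 ± 0.08, SE), and the mean with glutamate 90.0% (1397 ± 133.0 CPM).

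**Figure D2:**
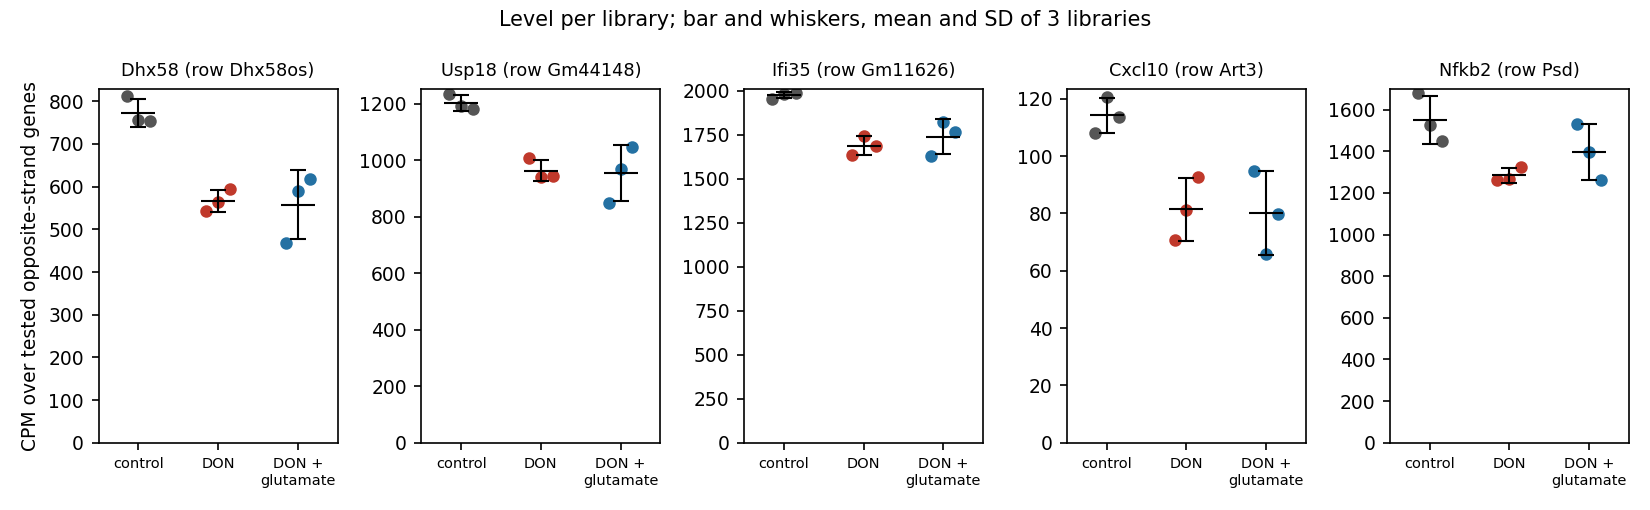
CPM of the 5 genes in each of 9 libraries (points), with the mean and SD of the 3 libraries of each group. Control libraries lie above all DON libraries in each panel, and 1 DON plus glutamate library of Nfkb2, at 1530 CPM, reaches the control range.

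The 5 genes were called lower in DON against control (adjusted p under 0.05, 5 of 5) because that call chose them; of the 2444 opposite-strand genes tested, 6.46% were called lower. All 5 had no overlap between DON and control libraries, where 14.9% of all genes lay lower without overlap. Their median log2 difference was -0.32, where the median of all tested genes was 0.00. The choice of the genes fixed these counts and that median, so nothing is read from them. The member nearest the threshold was Ifi35 (adjusted p = 0.0346, edgeR), and the nearest listed interferon gene outside it was Dtx3l (0.0544). In these bulk samples fewer cells making a transcript and less RNA per cell cannot be told apart. Of 10 listed smooth muscle markers 3 had an opposite-strand row, Tagln and Smtn with counts and Des at 0. Tagln averaged 342.0 ± 24.0 CPM in control, 240.8 ± 19.2 in DON and 345.1 ± 78.0 in DON plus glutamate (SD, n = 3). Its libraries with glutamate had 429.3, 330.8 and 275.3 CPM. Against DON they did not pass (edgeR adjusted p = 0.204), though 2 of 19 alternatives called Tagln there. Smtn averaged 1104 ± 78.3, 901.9 ± 82.7 and 900.3 ± 126.2 CPM in the same order. Both means were thus lower in DON, and that of Smtn also with glutamate. Their summed level, mostly Smtn, ran from 1341 to 1543 CPM in control, 1077 to 1206 in DON and 1033 to 1426 in DON plus glutamate. Acta2, Myh11 and Cnn1 had no opposite-strand value. The fibroblast marker Pdgfra, the 1 of 7 with a row, had 19.6 to 23.6 CPM in control, 3.24 to 11.6 in DON and 4.24 to 14.9 in DON plus glutamate. The part of these markers in the differences of the 5 genes was not tested. The 1 of 10 leukocyte markers with such a row, Cd3e, had no count in any library, and the 1 of 8 endothelial markers, Egfl7, reached at most 2 counts; none of the 5 epithelial markers had such a row.

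Added glutamate was compared with DON alone to ask what it changed under the inhibitor. None of the 5 genes passed (0 of 5 by edgeR's quasi-likelihood test, 0 by DESeq2, 0 by limma voom and 0 at an unadjusted p under 0.05), where 0.0409% of all genes passed in either direction. In every one of the 5 the DON and the DON plus glutamate libraries overlapped. The difference was log2 -0.03 for Dhx58 (95% confidence interval -0.21 to 0.16), -0.01 for Usp18 (-0.18 to 0.15) and 0.04 for Ifi35 (-0.10 to 0.19). For Cxcl10 it was -0.02 (-0.35 to 0.30), the widest interval, and for Nfkb2 0.12 (-0.04 to 0.28). These values share the DON libraries with the comparison that chose the genes.

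DON plus glutamate against control asks what stayed different with glutamate present. Dhx58, Usp18 and Cxcl10 were called lower, 3 of 5 members, where 2.74% of all genes were. The genes were chosen as lower than these same control libraries, so neither this count nor the p-values below are an independent test. Dhx58 was 1.39-fold lower (log2 -0.47 ± 0.09, SE; adjusted p = 0.000666, range over 19 alternatives 7.2e-06 to 0.0135) and kept its call in all 19. Usp18 was 1.26-fold lower (-0.33 ± 0.08; adjusted p = 0.00762, range 0.00207 to 0.0834) and lost its call without DON plus glutamate replicate 1 (adjusted p = 0.0834). Cxcl10 was 1.42-fold lower (-0.51 ± 0.15; adjusted p = 0.0390, range 0.0194 to 0.229). For Cxcl10 the adjusted p passed 0.05 when any control library was left out (0.0716, 0.151 and 0.111 without replicates 1, 2 and 3). It did so too without DON plus glutamate replicate 2 (0.229) or 3 (0.0934), by DESeq2 (0.110), with library totals (0.0574), with the replicate number as a block (0.0671) and with rows under their own names (0.0528). Ifi35, at log2 -0.18 ± 0.07 (adjusted p = 0.131), and Nfkb2, at -0.15 ± 0.08 (adjusted p = 0.299), did not pass. Dhx58, Usp18, Ifi35 and Cxcl10 had no overlap with the control libraries, where 12.1% of all genes lay lower without overlap. The control libraries are those of the comparison that chose the genes.

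**Figure D3:**
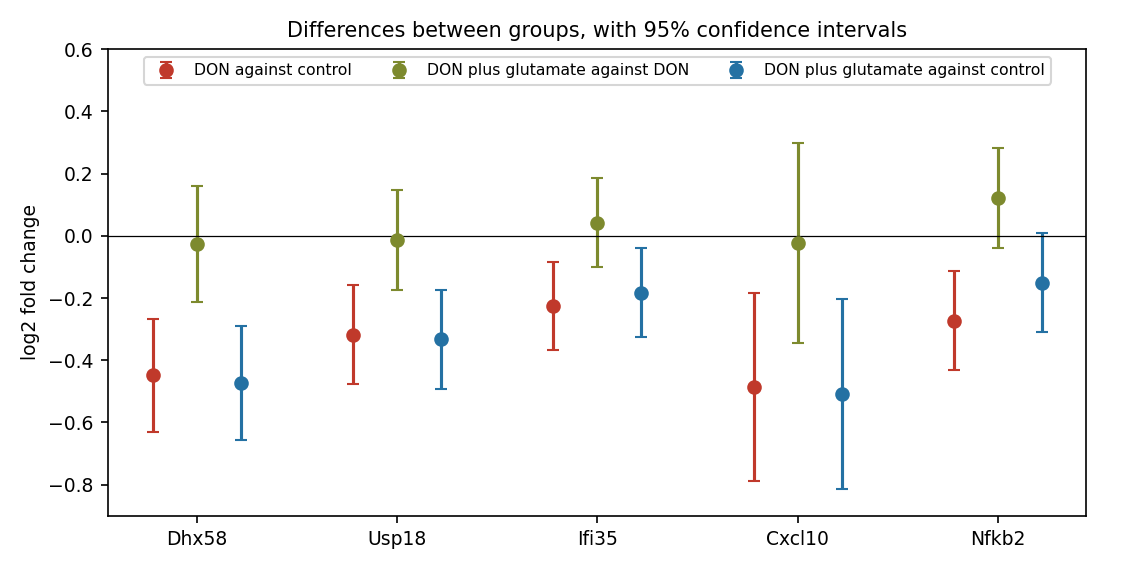
Log2 fold change of the 5 genes in the 3 comparisons, with 95% confidence intervals from the edgeR fit. The 2 comparisons with control sit below 0 for every gene, with the interval of Nfkb2 reaching 0.01 for DON plus glutamate, and all 5 intervals of DON plus glutamate against DON span 0.

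The libraries given glutamate had the highest coefficient of variation of the 3 groups for each of the 5 genes. The coefficient of variation of Dhx58 was 14.3% there, against 4.24% in control and 4.54% in DON. For Usp18 it was 10.4%, against 2.31% and 3.95%, and for Ifi35 5.81%, against 0.88% and 3.16%. Nfkb2 had 9.52%, against 7.44% and 2.71%, and the values of Cxcl10 are given above. Replicate 1 of DON plus glutamate was the lowest of the 9 libraries for Dhx58, Usp18 and Ifi35, but the highest of its group for Cxcl10 and Nfkb2. Counting alone gives 4.48%, 3.42%, 2.53% and 2.82% for Dhx58, Usp18, Ifi35 and Nfkb2 in that group. For the same genes it gives 3.74%, 3.002%, 2.34% and 2.64% in control, and 4.33%, 3.32%, 2.51% and 2.88% in DON. The control spreads of Usp18, Ifi35 and Cxcl10 and the DON spread of Nfkb2 were thus smaller than counting alone gives. The contrast with those low spreads may therefore overstate how much the groups differ. Whether the spread differed between groups was not tested.

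Other interferon genes were taken from a list of 51, of which 9 had an opposite-strand row and 8 passed the filter on low counts, 5 of them besides Dhx58, Usp18 and Ifi35. In DON against control 1 of those 5 fell and 0 rose by edgeR, where 6.46% of all genes were called lower and 5.11% higher. DESeq2 called 0, limma voom 1, and 3 had an unadjusted p under 0.05. The share of all genes at that unadjusted threshold is not given here, so nothing is read from such counts for this or the later lists. For scale, the edgeR unadjusted p of Ifi35, 0.00307, ranked 216 of 2444. The gene that fell was Parp9, a partner of the ubiquitin ligase Dtx3l, at log2 -0.38 ± 0.13 (SE, row Dtx3l). Its control libraries had 171.3, 205.4 and 195.7 CPM and its DON libraries 176.2, 130.9 and 131.5, so the groups overlapped through DON replicate 1. The Parp9 call (adjusted p = 0.0454, range over 19 alternatives 0.00788 to 0.225) ended without control replicate 2 (adjusted p = 0.203) or 3 (0.131), without DON replicate 2 (0.208) or 3 (0.225) or DON plus glutamate replicate 3 (0.0505). It also ended by DESeq2 (0.0963), with library totals (0.0742), a minimum of 10 counts in every library (0.0514), only the groups compared (0.0527) or the replicate number as a block (0.0721). Dtx3l itself, read through the row Parp9, was at -0.37 ± 0.13 (adjusted p = 0.0544) and passed without DON replicate 1 (0.0387; range 0.0387 to 0.306). The 2 genes overlap head to head, each row being the other's, so reads given the wrong strand would mix them.

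Adar, an RNA-editing enzyme, was at log2 -0.18 ± 0.07 (SE; row Chrnb2; adjusted p = 0.102) in DON against control. Tap1, a peptide transporter of antigen presentation, was at -0.02 ± 0.15 (row Psmb9), and Psmb9, an immunoproteasome subunit, at -0.03 ± 0.48 on 4 to 10 counts per library (row Tap1). The median of the 5 genes was -0.18. With glutamate present, against control, 1 of the 5 fell, where 2.74% of all genes were called lower. It was again Parp9 (-0.45 ± 0.13, edgeR adjusted p = 0.0317, range 0.0129 to 0.161). That call ended without control replicate 2 (0.161) or 3 (0.127) or DON plus glutamate replicate 1 (0.140) or 3 (0.0791), by DESeq2 (0.0770), with library totals (0.0572) and with the block (0.0576). DESeq2 then called 0 of the 5, limma voom 1, and 3 had an unadjusted p under 0.05, a count again given without its share over all genes. Against DON alone 0 of the 5 passed by edgeR, DESeq2 or limma voom, and 0 at an unadjusted p under 0.05.

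Of 24 genes of interferon signalling 6 were tested: the transcription factors Irf1 and Irf3, the kinase Ikbke, the DNA sensor Cgas, the RNA receptor Tlr3 and the phosphatase Ptpn6. In each of the 3 comparisons 0 of 6 passed by edgeR, by DESeq2 and by limma voom, and 0 had an unadjusted p under 0.05. In DON against control they ran from log2 -0.30 ± 0.23 (SE) for Tlr3 to 0.12 ± 0.15 for Cgas, with a median of -0.06. Irf1, itself induced by interferon and by NF-kB, was at -0.10 ± 0.08, its control libraries averaging 571.8 ± 21.1 CPM (SD, n = 3) and its DON libraries 533.6 ± 30.5.

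On the NF-kB side, 36 target and cytokine genes were listed, 6 had an opposite-strand row and 4 were tested, 3 of them besides Cxcl10. In DON against control DESeq2 and limma voom each called 1 of the 3, and 2 had an unadjusted p under 0.05, a count given without its share over all genes. By edgeR 0 of the 3 fell and 1 rose, where 6.46% of all genes were called lower and 5.11% higher. That was Tnfaip2, a gene induced by TNF, which rose by log2 0.54 ± 0.12 (SE; row Gm40578; adjusted p = 0.00304, range 6.89e-05 to 0.0435 over 19 alternatives), the opposite direction to Cxcl10. Its libraries had 234.5, 176.0 and 241.6 CPM in control and 298.6, 365.5 and 285.2 in DON, without overlap. With DON plus glutamate it had 254.2, 285.2 and 296.5 CPM, at log2 0.36 ± 0.12 against control (adjusted p = 0.0894), and passed there with no filter on low counts (0.0449) or without DON replicate 2 (0.0480; range 0.0449 to 0.379). Vcam1, an adhesion molecule for leukocytes, was at -0.19 ± 0.07 (row Gm43109, 61 bp shared; adjusted p = 0.0989) in DON against control, its control libraries averaging 4092 ± 121.6 CPM (SD, n = 3) and its DON libraries 3588 ± 145.1. Cxcl16, a membrane-bound chemokine, was at -0.22 ± 0.17 (adjusted p = 0.456). With glutamate 0 of the 3 passed by edgeR, DESeq2 or limma voom, against control (2 had an unadjusted p under 0.05) or against DON (0 had).

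Of 29 genes of the NF-kB pathway 7 had a row and 4 were tested. Besides Nfkb2, 0 of 3 passed in any comparison by edgeR, DESeq2 or limma voom, and 0 had an unadjusted p under 0.05. In DON against control Bcl3, a nuclear partner of p52, was at log2 -0.18 ± 0.14 (SE; row Gm16175). Ikbkg, the regulatory subunit of the IkB kinase, was at -0.16 ± 0.11 (row G6pdx), and Myd88, the adaptor of Toll-like receptors, at 0.00 ± 0.12 (row Acaa1a). The other listed genes of these 4 groups, among them Isg15, Ifit1, Ccl2, Il6, Rela and Nfkbia, had no tested opposite-strand value, so the counts speak for the measured genes alone.

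**Figure D4:**
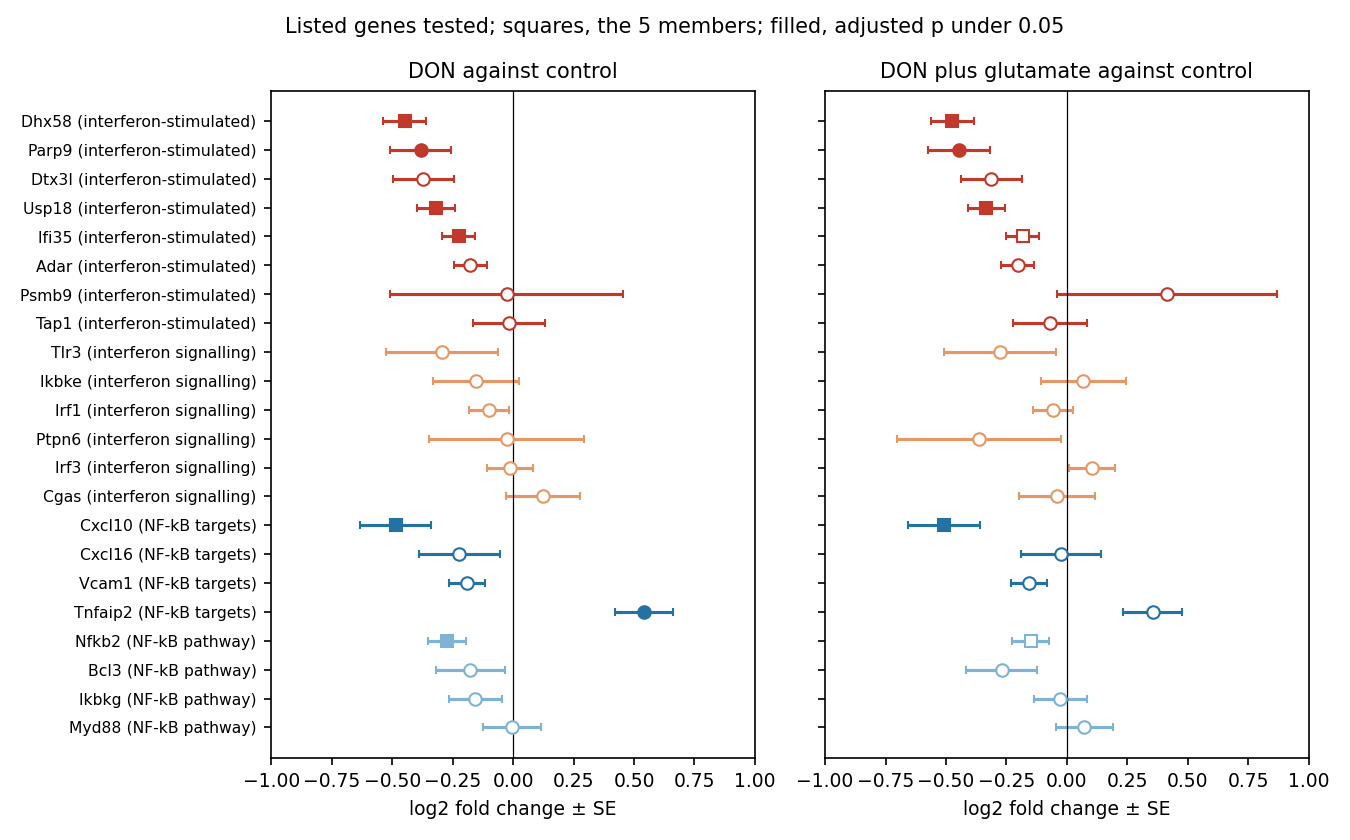
Log2 fold change ± SE of the 22 tested genes of the 4 lists, in DON (left) and DON plus glutamate (right) against control. Squares mark the 5 chosen genes, filled symbols an adjusted p under 0.05, and Tnfaip2 is the filled symbol to the right of 0.

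Among the genes whose log2 CPM over the 9 libraries was most like the average of the 5, by Pearson correlation, were Capn2 (r = 0.98), Hmgcs1 (0.98), Serpinb9b (0.96) and Rcn3 (0.96). The 9 libraries form 3 groups and share their scaling, so r mainly follows the step from control to the treated libraries. In DON against control these genes were at log2 -0.42 ± 0.07 (SE) for Capn2, -1.16 ± 0.07 for Hmgcs1, -0.63 ± 0.09 for Serpinb9b and -0.49 ± 0.07 for Rcn3. With glutamate, against control, they were at -0.34 ± 0.07, -1.10 ± 0.07, -0.54 ± 0.09 and -0.40 ± 0.07.

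Sequence before the start site was looked at because these genes are known targets of interferon and NF-kB factors. The RefSeq promoter table (GRCm38.p6, the assembly of mm10) held Cxcl10, Ifi35 and Nfkb2, 3 of the 5 genes, and the 250 bases before each start were searched on both strands. The motifs were GAAANNGAA, the core of the interferon-stimulated response element, TTCNNNGAA, the STAT site, and GGAANNNCC, the core of the NF-kB site. Of 32851 promoters 7.13% held the first, 7.02% the second and 15.7% the third. The 250 bases before Cxcl10 (chr5:92348890-92349139, minus strand, 5′ to 3′) held GAAANNGAA beginning 213 bases before the start and GGAANNNCC beginning 158 and 103 bases before it. The matches are in capitals.
Cxcl10 promoter: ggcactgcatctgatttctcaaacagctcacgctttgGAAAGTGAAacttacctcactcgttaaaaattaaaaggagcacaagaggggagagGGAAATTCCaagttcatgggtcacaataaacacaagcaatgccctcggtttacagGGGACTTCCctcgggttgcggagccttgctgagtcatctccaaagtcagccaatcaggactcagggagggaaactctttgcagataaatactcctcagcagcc
The window of the first of 3 Nfkb2 starts held TTCNNNGAA at 148 bases and GGAANNNCC at 39, 38 and 10 bases before the start. All 250 bases of that window lie in exons of Nfkb2 in GENCODE M21. They thus precede this RefSeq start but not every annotated start of the gene. The matches at 39 and 38 overlap, 1 on each strand, and are shown in capitals (chr19:46304688-46304717, plus strand).
Nfkb2 site: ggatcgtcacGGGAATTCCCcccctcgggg
The windows of the other starts held GGAANNNCC 2 times and 1 time, and neither of the other motifs. GENCODE exons of Nfkb2 held 0 bases of the former window and 234 of the latter. The 250 bases before Ifi35 held none of the 3 motifs. A match says only that these letters are present, and none of the libraries measured binding.

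**Figure D5:**
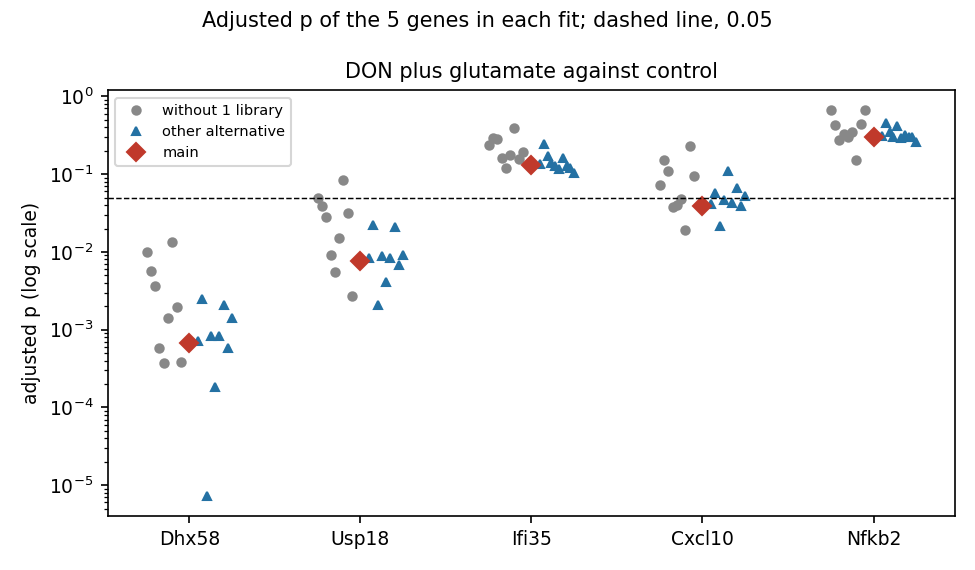
Adjusted p of the 5 genes in DON plus glutamate against control (log axis) in the fit as reported (red diamonds), in fits without 1 library (grey circles) and in the other alternatives (blue triangles). Dhx58 stays under the dashed line at 0.05 in every fit shown, Usp18 and Cxcl10 lie on both sides of it, and Ifi35 and Nfkb2 stay above it.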

How the data were processed

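RNA was sequenced in 9 libraries of MOVAS cells, and the authors deposited 1 table of raw read counts, with a row per gene and a column per library. STAR, HTSeq and the build mm10 are named by the submitters' processing notes. The strand setting and annotation release are not given in the sources used here. Rows were matched by identifier to GENCODE M21 (mm10; 53274 of 53379 matched). Rows whose exons overlap exactly 1 protein-coding gene on the other strand, by at least 50 bp, stood for that gene, using the row with the highest mean count. This gave 4115 genes, of which 2444 passed filterByExpr.

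Counts were tested with edgeR 4.0.16 (R 4.3.3): a quasi-likelihood fit (glmQLFit) of all 9 libraries with TMM factors and 6 residual degrees of freedom, tested two-sided by glmQLFTest, with Benjamini-Hochberg adjustment over all tested genes and a call at adjusted p under 0.05. Each standard error was derived from the F statistic. Counting error is the Poisson value at the mean count, and PCR copies are not told apart. The fit was tested on simulated counts. Alternatives used DESeq2 1.42.0, limma 3.58.1 voom, other scalings, filters and overlaps, a replicate block, and each library left out.

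The members and gene lists were chosen with earlier results of these data known. The named genes are the 5 members, the listed genes with a tested value, and the 5 genes of most similar pattern, of which 1 is not reported here; Tagln, Smtn and Pdgfra are markers from fixed lists.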

Additional observations from a re-analysis of the deposited data

How the results depend on the processing

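Each member kept a lower value in DON and in DON plus glutamate against control under every alternative in which it could be fitted. The members were chosen as lower in DON, and both comparisons use the same control libraries. Nothing is therefore read from the kept direction. In DON against control, the comparison that chose the members, 5 members and 283 genes (158 lower, 125 higher) were called. With 1 library left out these counts ran from 2 to 5 and from 142 to 292, and at adjusted p under 0.01 they were 2 and 127. The gene count was 142, 186, 180 and 178 without control replicate 2, control replicate 1, DON replicate 2 and DON replicate 3. In DON plus glutamate against control, 3 members and 131 genes (67 lower, 64 higher) were called, 2 to 3 and 73 to 154 with 1 library left out, and 66 genes at adjusted p under 0.01. The gene count was 83, 77 and 73 without control replicate 2, control replicate 3 and DON plus glutamate replicate 2. In DON plus glutamate against DON, 1 gene was called, 0 to 3 with 1 library left out, 4 with no filter on low counts and 7 with rows under their own names. No member was called there in any alternative. With an overlap of at least 200 bp 2 members could be fitted, Ifi35 and Nfkb2. Both, 2 of 2, were called in DON against control, where 107 of 1722 genes were called lower. In DON plus glutamate against control 0 of 2 were called, where 49 of 1722 genes were called lower. The cause of these changes was not tested. Fewer libraries or fewer members entered some of these fits. Scaling by library totals turned the split to 116 lower and 152 higher in DON, and to 51 lower and 82 higher in DON plus glutamate, against control. With the replicate number as a block, 4 and 2 members and 215 and 109 genes were called against control, the calls of Ifi35 (adjusted p = 0.0502) and of Cxcl10 with glutamate (0.0671) ending. Deviations of same-numbered libraries correlated between -0.10 and 0.07. Differently numbered libraries were not correlated for comparison, so these values cannot settle whether the numbers pair the libraries. Depth limits Cxcl10 most.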
